A study of Cavia porcellus with 12 samples.

Results

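De novo lipogenesis is the pathway by which the liver makes fatty acids from carbohydrate, and 10 of its genes were chosen here by name: the regulators *SREBF1*, *MLXIPL* and *THRSP*, and the enzymes *ACLY*, *ACACA*, *ACACB*, *FASN*, *ME1*, *ELOVL6* and *SCD*. Of the 10, 8 were among the 11896 human orthologue symbols of the deposited rlog table (log2 values shrunken by the regularised log transformation). *ACACB* and *SCD* had no row under their symbol and were not analysed here. RNA sequencing covered the left lateral liver lobe of 6 guinea pigs with NASH, fed a high-fat diet with added sucrose and cholesterol, and of 6 controls fed chow, all of them female Dunkin Hartley animals of the same starting age kept on their diet for 25 weeks. The animals with NASH were picked for bridging fibrosis and the controls were drawn at random from animals free of NASH and fibrosis, so that diet and disease cannot be told apart. Every animal gave 1 library, so that p-values measure the spread between animals, and is named by its number, 5, 10, 31, 32, 45 and 56 among controls and 2, 9, 11, 20, 41 and 65 in NASH. No strain, transgene or drug differed between the groups.

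In lipogenesis, citrate leaves the mitochondrion and is split by ATP citrate lyase (*ACLY*) into acetyl-CoA, which acetyl-CoA carboxylase (*ACACA* in the cytosol) turns into malonyl-CoA. Fatty acid synthase (*FASN*) builds palmitate from malonyl-CoA with NADPH, part of which comes from malic enzyme (*ME1*), and *ELOVL6* lengthens palmitate to stearate. In liver, *SREBF1* encodes the membrane-bound factor SREBP-1, which is induced by insulin and by liver X receptor, *MLXIPL* encodes the glucose-responsive factor ChREBP, and *THRSP* encodes Spot 14, a small acidic protein that is induced by thyroid hormone and carbohydrate feeding.

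Total counts ranged from 16980274 to 28636467 per control library and from 23704607 to 33091460 per NASH library. Values are CPM, counts scaled to a common library size and corrected by edgeR's TMM method, with factors of 0.804 to 0.875 (controls) and 1.116 to 1.241 (NASH). CPM is not corrected for gene length, so levels are compared between groups and not between genes. All 8 genes stood alone on their count row, so none shared its reads with another symbol, and the counts do not separate isoforms such as SREBP-1a and SREBP-1c. Hepatocyte markers, 10 in all, summed to 112540 to 135880 CPM per control and to 49195 to 73298 CPM per animal with NASH, with 9 of them lower and none higher (5 and none with library size alone in place of TMM factors). In whole tissue, fewer hepatocytes and less RNA per hepatocyte cannot be told apart.

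The 8 genes did not move as a set. By edgeR's quasi-likelihood test with Benjamini-Hochberg adjustment over all genes, *SREBF1*, *FASN* and *ME1* were higher and *MLXIPL* and *THRSP* were lower in NASH, whereas *ACLY*, *ACACA* and *ELOVL6* did not pass the threshold of 0.05. Of all 11896 genes, 53.9% passed it, 27.9% higher and 26.0% lower, so that 5 of 8 is a share near the background. Over the 8 genes the log2 fold changes had a median of 0.0075, and over all genes of 0.0018. In each of the 5 genes that passed, the CPM of the animals with NASH lay wholly above (3 genes) or wholly below (2 genes) that of the controls, as in 18.4% and 15.3% of all genes.

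**Figure D1:**
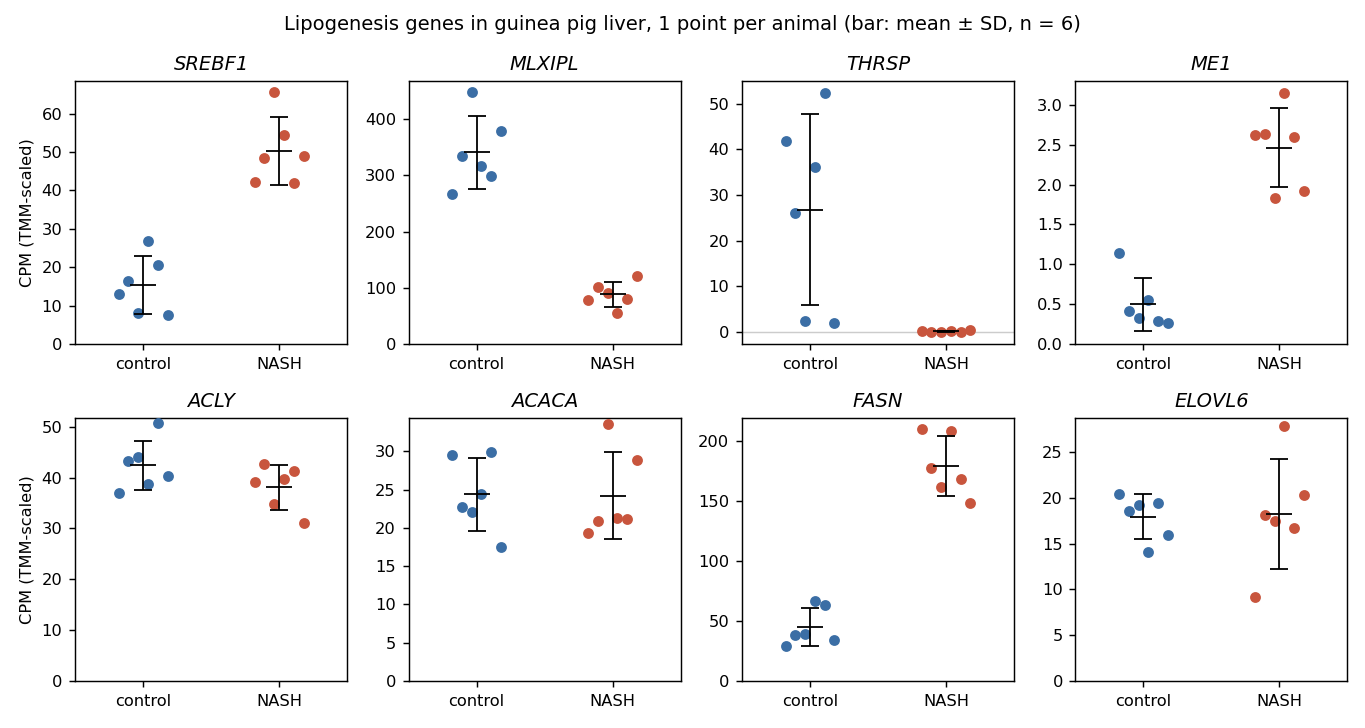
CPM (TMM-scaled, linear axes, a scale of its own in each panel) of the 8 genes in each of the 6 controls and 6 animals with NASH, with bars for the mean ± SD. The groups are apart in *SREBF1*, *MLXIPL*, *THRSP*, *ME1* and *FASN* and overlap in *ACLY*, *ACACA* and *ELOVL6*, and in *THRSP* controls 31 and 56 sit at 2.51 and 2.02 CPM, far below the other controls.

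Among the regulators, *SREBF1* counts ran from 111 to 587 in controls and from 1238 to 2001 in NASH. This was 7.47 CPM at the lowest, 14.7 at the median and 26.9 at the highest in controls, and 42.0, 48.7 and 65.6 CPM in NASH. Even the control with the most *SREBF1*, animal 32, was below every animal with NASH. The mean rose from 15.4 ± 7.53 to 50.2 ± 8.85 CPM (SD, n = 6 each) (log2 fold change 1.70, SE 0.29, 95% interval 1.08 to 2.32, edgeR adjusted p = 0.000284). Controls spread more widely than animals with NASH, with a highest value 3.61 times the lowest, against 1.56 times in NASH.

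*MLXIPL* went the other way. Its lowest, median and highest CPM were 267, 326 and 448 in controls and 55.4, 86.3 and 122 in NASH. Control 5, the lowest of its group, still lay well above the highest animal with NASH, animal 65, and counts were at least 1776 in every animal. The mean fell from 340 ± 64.4 to 88.3 ± 22.7 CPM (SD, n = 6 each), to 25.9% of the control level (log2 fold change −1.95, SE 0.18, 95% interval −2.34 to −1.56, edgeR adjusted p = 2.38e-06).

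*THRSP* was close to absent in NASH. Its counts in controls were 586, 508, 54, 788, 1272 and 30 in animals 5, 10, 31, 32, 45 and 56. In NASH they were 7, 0, 2, 8, 0 and 14 in animals 2, 9, 11, 20, 41 and 65, where a count of 0 allows up to 0.0876 CPM in animal 9 and 0.0765 CPM in animal 41 (3 counts, counting error only). Every animal with NASH was thus below the lowest control, although controls 31 and 56 came nearer to them than to the other controls on a linear scale. The mean fell from 26.8 ± 20.8 to 0.174 ± 0.191 CPM (SD, n = 6 each), to 0.648% of the control level, and the fitted log2 fold change was −7.33 (SE 1.02, 95% interval from −9.54 to −5.11, edgeR adjusted p = 6.8e-05). With limma-voom the gene did not pass the threshold (adjusted p = 0.0703), at a log2 fold change of −7.55. Without NASH animal 65, which had the most counts of its group, the fitted value was −7.95, and on the deposited rlog values the difference was −2.64.

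Of the enzymes, *FASN* rose in every animal with NASH above every control. Its lowest, median and highest CPM were 29.1, 39.0 and 66.9 in controls and 148, 173 and 210 in NASH. Its mean rose from 45.2 ± 15.8 to 179 ± 25.2 CPM (SD, n = 6 each), 3.95 times the control level (log2 fold change 1.98, SE 0.20, 95% interval 1.54 to 2.42, edgeR adjusted p = 5.6e-06). The animals with the most were 2 and 20, at 210 and 208 CPM, and the controls with the most were 32 and 45, at 66.9 and 63.0 CPM.

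*ME1*, which supplies NADPH in the cytosol, was lowly expressed. Its counts ran from 4 to 16 in controls and from 55 to 102 in NASH. Its lowest, median and highest CPM were 0.269, 0.368 and 1.14 in controls and 1.83, 2.61 and 3.15 in NASH. Control 5 stood above the other controls and still below every animal with NASH. The log2 fold change was 2.34 (SE 0.32, 95% interval from 1.64 to 3.04, edgeR adjusted p = 5.56e-05). The deposited rlog values shrink differences, and in them that of *ME1* was 0.45, that of *SREBF1* 1.07, that of *MLXIPL* −1.26 and that of *FASN* 1.29, all called by limma as well.

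The steps on either side of fatty acid synthase showed no such difference. *ACLY* had a lowest, median and highest CPM of 37.0, 41.9 and 50.8 in controls and of 31.02, 39.4 and 42.7 in NASH. Animals 65 and 11 with NASH lay below every control, and controls 10, 31 and 45 lay above every animal with NASH. The rest were intermixed. Its log2 fold change was −0.15 (95% interval from −0.36 to 0.05, edgeR adjusted p = 0.196). *ACACA* ranged from 17.5 to 29.96 CPM in controls and from 19.4 to 33.6 CPM in NASH, with a log2 fold change of −0.01 (95% interval from −0.36 to 0.34, edgeR adjusted p = 0.959). Control 56 was the lowest of all 12 animals and animal 11 with NASH the highest. *ELOVL6* ranged from 14.1 to 20.4 CPM in controls and from 9.22 to 27.8 CPM in NASH, with a log2 fold change of 0.03 (95% interval from −0.41 to 0.46, edgeR adjusted p = 0.921). The lowest and the highest level of *ELOVL6* both came from NASH, in animals 2 and 20, so that the spread was wider there (SD 6.0 CPM) than in controls (SD 2.41 CPM). With library size alone in place of TMM factors, the median of all genes moved to 0.48, and these 3 genes passed the threshold as higher, at 0.32 for *ACLY*, 0.46 for *ACACA* and 0.50 for *ELOVL6*. Relative to that median they were at −0.15, −0.01 and 0.02.

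**Figure D2:**
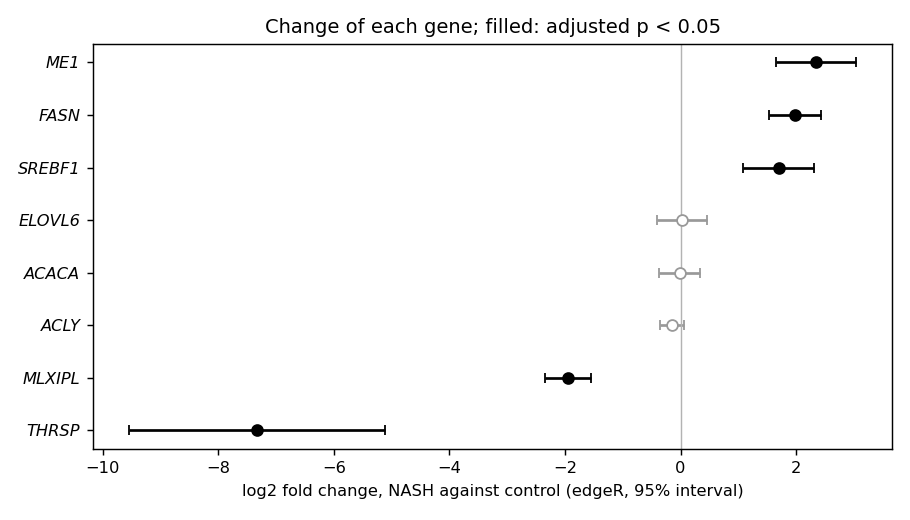
Log2 fold change of each gene in NASH against control by edgeR, with 95% intervals; filled points passed the adjusted threshold of 0.05. *THRSP* and *MLXIPL* lie below 0, *SREBF1*, *FASN* and *ME1* above it, and the intervals of *ACLY*, *ACACA* and *ELOVL6* include 0.

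The change of the regulators against each other was followed with the log2 ratio of each pair within an animal, in which the scaling between animals cancels. The ratio of *SREBF1* to *MLXIPL* was −4.59 ± 0.92 in controls and −0.79 ± 0.46 in NASH (SD, n = 6 each), a shift of 3.8 (2.34 on the deposited rlog values). The ratio of *SREBF1* to *THRSP* was −0.10 ± 1.51 in controls and 8.02 ± 1.21 in NASH, a shift of 8.12, whose size depended on the prior count because 2 animals with NASH had no *THRSP* counts (9.02 with a prior count of 0.5 in place of 2, and 3.72 on the deposited rlog values). In both ratios the lowest NASH value exceeded the highest control value. This had to be so, because *SREBF1* rose and *MLXIPL* and *THRSP* fell, each without overlap of the groups. The p of 0.00216 by a two-sided exact permutation test is the smallest this design of 6 and 6 can give (adjusted p = 0.00325 over 3 ratios). It only restates the changes of the single genes. The 2 genes that fell differed as well, since the ratio of *MLXIPL* to *THRSP* was 4.49 ± 2.34 in controls and 8.80 ± 1.27 in NASH (p = 0.00649 by the same exact permutation test, also after adjustment). Here controls overlapped NASH at their upper end, where animals 31 and 56 lay, and on the deposited rlog values the shift was 1.38 (adjusted p = 0.0606, exact permutation) in place of 4.32. These pairs were named with earlier results of these data known.

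Further ratios, chosen after the values were seen, set *FASN* against the enzymes around it. The ratio of *FASN* to *ACLY* shifted by 2.19, that to *ACACA* by 2.06 and that to *ELOVL6* by 2.07 on the log2 scale. In each of the 3 all animals with NASH were above all controls. *FASN* was taken because it rose and the other 3 because they did not pass the threshold, so these shifts are a description, and a p-value for them would only restate that choice. *ME1*, which rose with *FASN*, was not set against it.

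**Figure D3:**
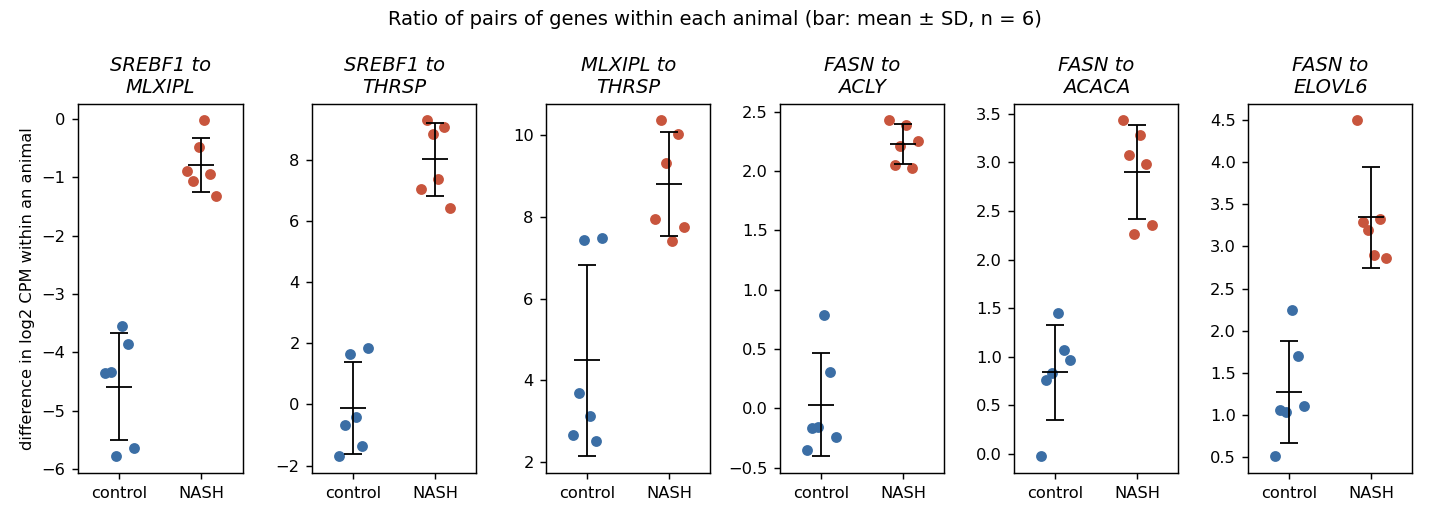
Difference in log2 CPM between 2 genes within each animal, with the mean ± SD of 6 animals a group; zero is arbitrary, because gene length is not corrected for. The groups are apart in 5 of the 6 ratios, and in the ratio of *MLXIPL* to *THRSP* the 2 highest controls reach the lowest animal with NASH.

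Within the controls, 2 animals stood apart in several of the genes. Controls 31 and 56 had 2.51 and 2.02 CPM of *THRSP*, against 26.1 to 52.3 CPM in the other 4. The same pair had the lowest *SREBF1*, 8.06 and 7.47 CPM against 12.9 to 26.9 CPM. It also had the highest *MLXIPL*, 448 and 378 CPM against 267 to 335 CPM. Among the enzymes, the pair also had the lowest *ACACA*, 22.1 and 17.5 CPM against 22.8 to 29.96 CPM, but control 31 was close to that range. Control 56 had the lowest *ME1*, 0.269 CPM at 4 counts, close to the 0.288 CPM at 7 counts of control 45. *FASN*, *ACLY* and *ELOVL6* of this pair lay inside the range of the other 4 controls. Without both animals, an alternative chosen after seeing the data, the same 5 genes were called, at −7.87 for *THRSP*, 1.38 for *SREBF1*, −1.78 for *MLXIPL*, 1.85 for *FASN* and 2.1 for *ME1*.

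Over the 6 controls, log2 CPM of *THRSP* correlated with that of *SREBF1* (Pearson's r = 0.876, exact permutation p = 0.0347; Spearman's rho = 0.714, p = 0.136), of *MLXIPL* (r = −0.881, p = 0.0194; rho = −0.886, p = 0.0333) and of *ACACA* (r = 0.848, p = 0.025; rho = 1, p = 0.00278). In all, 14 relations were computed, 7 genes in each group, with *THRSP* taken because it varied widely among controls in earlier results. Pearson and rank correlations were adjusted separately, each over the 14, and not over both kinds together. None of the Pearson correlations passed (smallest adjusted p = 0.162, exact permutation), and of the rank correlations that with *ACACA* did (adjusted p = 0.0389, exact permutation). Without controls 31 and 56, r was 0.088 for *SREBF1*, −0.671 for *MLXIPL* and 0.921 for *ACACA*, so the relation with *SREBF1* rested on these animals. With *FASN* (r = 0.409, p = 0.39) and *ACLY* (r = 0.059, p = 0.935) no relation was detectable by the same exact permutation tests. In the 6 animals with NASH, where *THRSP* had at most 14 counts, the largest of the 7 correlations was that with *ACLY* (r = −0.678, exact permutation p = 0.142; without animals 9 and 41, r = −0.288).

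**Figure D4:**
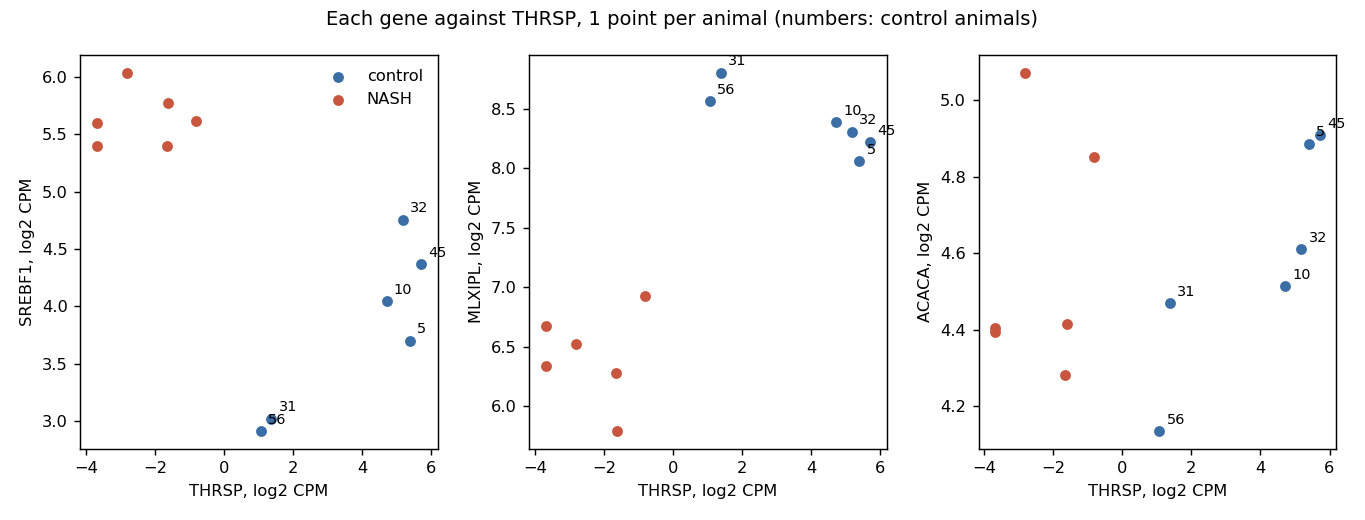
Log2 CPM of *SREBF1*, *MLXIPL* and *ACACA* against that of *THRSP* in each animal, controls numbered. Controls 31 and 56 are at the low end of *THRSP*, with the lowest *SREBF1* and the highest *MLXIPL* among controls, and the animals with NASH form a cluster of their own in *SREBF1* and *MLXIPL*.

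The genes most like each regulator across animals were looked up in the rlog values of all 12 animals after the mean of each group had been taken off. They were picked as the highest of all genes, so their r values are a description. Closest to *THRSP* were *ADPRH* (r = 0.944), *IBTK* (0.935), *COPA* (0.928), *CHD5* (0.920) and *GALNT11* (0.914). For these 5 genes r was between 0.934 and 0.969 within controls and between −0.412 and 0.589 within NASH, where *THRSP* was near 0. Closest to *SREBF1* were *PMS1* (0.942), *RYBP* (0.935), *EIF4H* (0.910), *FMO5* (0.904) and *ZC3H6* (0.901), all with r of at least 0.752 in each group. Closest to *MLXIPL* were *BCL7A* (0.920), *MUL1* (0.909), *TMCO6* (0.899), *TBC1D17* (0.898) and *SRCAP* (0.891).

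Genes around the pathway were grouped in 7 lists, to be read against the 27.9% of all genes that were higher and the 26.0% that were lower. Of 9 genes for substrate and NADPH supply, 3 rose and 5 fell; the median was −0.33 on the log2 scale. *ACSS2*, which makes acetyl-CoA from acetate, rose by a log2 fold change of 0.71 (edgeR adjusted p = 0.0154, and 0.0523 without controls 31 and 56). The mitochondrial citrate carrier *SLC25A1* fell by 0.92 on the log2 scale (edgeR adjusted p = 1.94e-05), and *IDH1*, an NADP-dependent isocitrate dehydrogenase, fell by 0.72 (edgeR adjusted p = 2.94e-05).

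Upstream of *SREBF1*, 3 of 13 genes for SREBP processing and its nuclear receptors rose and 6 fell, around a median of −0.31. *NR1H3*, the liver X receptor alpha that induces *SREBF1*, fell from 158 ± 20.7 to 66.8 ± 11.7 CPM (SD, n = 6 each) (log2 fold change −1.24, SE 0.12, edgeR adjusted p = 3.94e-06). The other liver X receptor, *NR1H2*, rose from 17.5 ± 1.95 to 22.9 ± 1.71 CPM (SD, n = 6 each), also without overlap (log2 fold change 0.39, SE 0.08, edgeR adjusted p = 0.00189). *INSIG1*, which holds SREBP in the endoplasmic reticulum and is itself an SREBP target, fell by 1.10 (edgeR adjusted p = 0.0023), and *SREBF2*, the factor for cholesterol synthesis, fell by 0.91 (edgeR adjusted p = 1.9e-05). *SCAP*, the escort of SREBP, was at −0.004 (95% interval from −0.24 to 0.23, edgeR adjusted p = 0.98). *MBTPS2*, a protease that releases SREBP, rose by a log2 fold change of 0.63 (edgeR adjusted p = 0.00138). *PPARG* was higher by 0.51 (edgeR adjusted p = 0.0311), a call that was lost without control 5, 10 or 56 and without NASH animal 2, 20 or 41 (adjusted p from 0.0543 to 0.0643).

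Beside *MLXIPL*, 8 of 15 ChREBP partners and glucose-responsive genes fell and 2 rose, around a median of −0.53. *G6PC*, the catalytic subunit of glucose-6-phosphatase, fell from 717 ± 129.9 to 160.3 ± 28.4 CPM (SD, n = 6 each) (log2 fold change −2.16, SE 0.15, edgeR adjusted p = 2.55e-07). Fructokinase, *KHK*, fell by 1.62 (edgeR adjusted p = 4.18e-07), and liver pyruvate kinase, *PKLR*, by 0.90 (edgeR adjusted p = 0.000209). *MLX*, the partner of ChREBP, shared its count row with *COASY*, so its change of −0.67 is uncertain. *RGS16* rose from 0.144 ± 0.228 to 1.14 ± 0.330 CPM (SD, n = 6 each) and *ARRDC4* by a log2 fold change of 0.69 (edgeR adjusted p = 0.00441 and 8.23e-05). With library size alone, 6 of the 15 rose and 5 fell, at a median of −0.06 beside 0.48 over all genes.

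Of 8 genes for further desaturation, elongation and glyceride synthesis, 3 rose and 3 fell, around a median of −0.34. The desaturases *FADS2* and *FADS1* rose by log2 fold changes of 3.73 and 2.06 (edgeR adjusted p = 0.000331 and 7.15e-05). *FADS2* had at most 8 counts in a control and at least 40 in NASH. The acyltransferases *GPAM* and *DGAT2*, which add fatty acids to glycerol, fell by 1.64 and 1.19 (edgeR adjusted p = 0.00039 and 2.56e-05). Among the 5 measured paralogues of the enzymes, 3 were higher and 1 lower. *SCD5*, a stearoyl-CoA desaturase, rose from 0.720 ± 0.286 to 6.96 ± 2.18 CPM (SD, n = 6 each) (log2 fold change 3.30, SE 0.29, edgeR adjusted p = 1.29e-06), and *ELOVL7* rose by 1.32 (edgeR adjusted p = 0.0106). *ELOVL2*, an elongase of polyunsaturated fatty acids, fell by 3.23 (edgeR adjusted p = 2.53e-05).

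Near *THRSP*, 2 of 7 measured genes of thyroid hormone action were higher and 3 lower. The hormone-responsive *KLF9* fell by 1.24 and the amino acid and thyroid hormone carrier *SLC16A10* fell by 1.262 (edgeR adjusted p = 2.16e-05 and 0.0124), while *HR* and *GPD2* rose by log2 fold changes of 2.63 and 1.05 (edgeR adjusted p = 7.72e-05 and 2.05e-05). *HR* had at most 7 counts in a control and 27 to 55 in NASH. The receptor *THRB* was at −0.67 (edgeR adjusted p = 0.054). *DIO1*, the deiodinase that activates thyroid hormone, was lower by −0.48 at an adjusted p of 0.0405 from edgeR, and this call was lost without any 1 of 9 animals (adjusted p from 0.051 to 0.094). Of 11 genes that act on acetyl-CoA carboxylase, 2 were higher and 2 lower. *MID1IP1*, which encodes the relative of Spot 14 that polymerises the carboxylase, ranged from 1.69 to 3.63 CPM in controls and from 4.75 to 7.19 CPM in NASH (log2 fold change 0.98, SE 0.19, edgeR adjusted p = 0.000896). *PRKAG2*, a regulatory subunit of AMP-activated protein kinase, rose by a log2 fold change of 1.25, and *MLYCD*, which degrades malonyl-CoA, fell by 0.54 (edgeR adjusted p = 9.74e-05 and 0.00113). The catalytic subunit of the kinase, *PRKAA1*, fell by 0.38 (edgeR adjusted p = 0.000557) with TMM factors, and with library size alone it was at 0.10, below the median of 0.48 that all genes had under that scaling.

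With library size alone, which moved the median of all genes to 0.48 and called 63.9% of them higher and 7.66% lower, 4 genes of substrate and NADPH supply were higher and 2 lower, 5 and 4 of the SREBP list, 4 and 3 of the downstream list, 2 and 1 of the thyroid hormone list, 7 and 0 of the carboxylase list, and 3 and 1 of the paralogues, as with TMM factors. Of the genes named as lower, *MLX* (−0.20, edgeR adjusted p = 0.125), *DIO1* (−0.001, 0.996), *SLC16A10* (−0.81, 0.0637) and *MLYCD* (−0.06, 0.64) also lost their call under it.

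**Figure D5:**
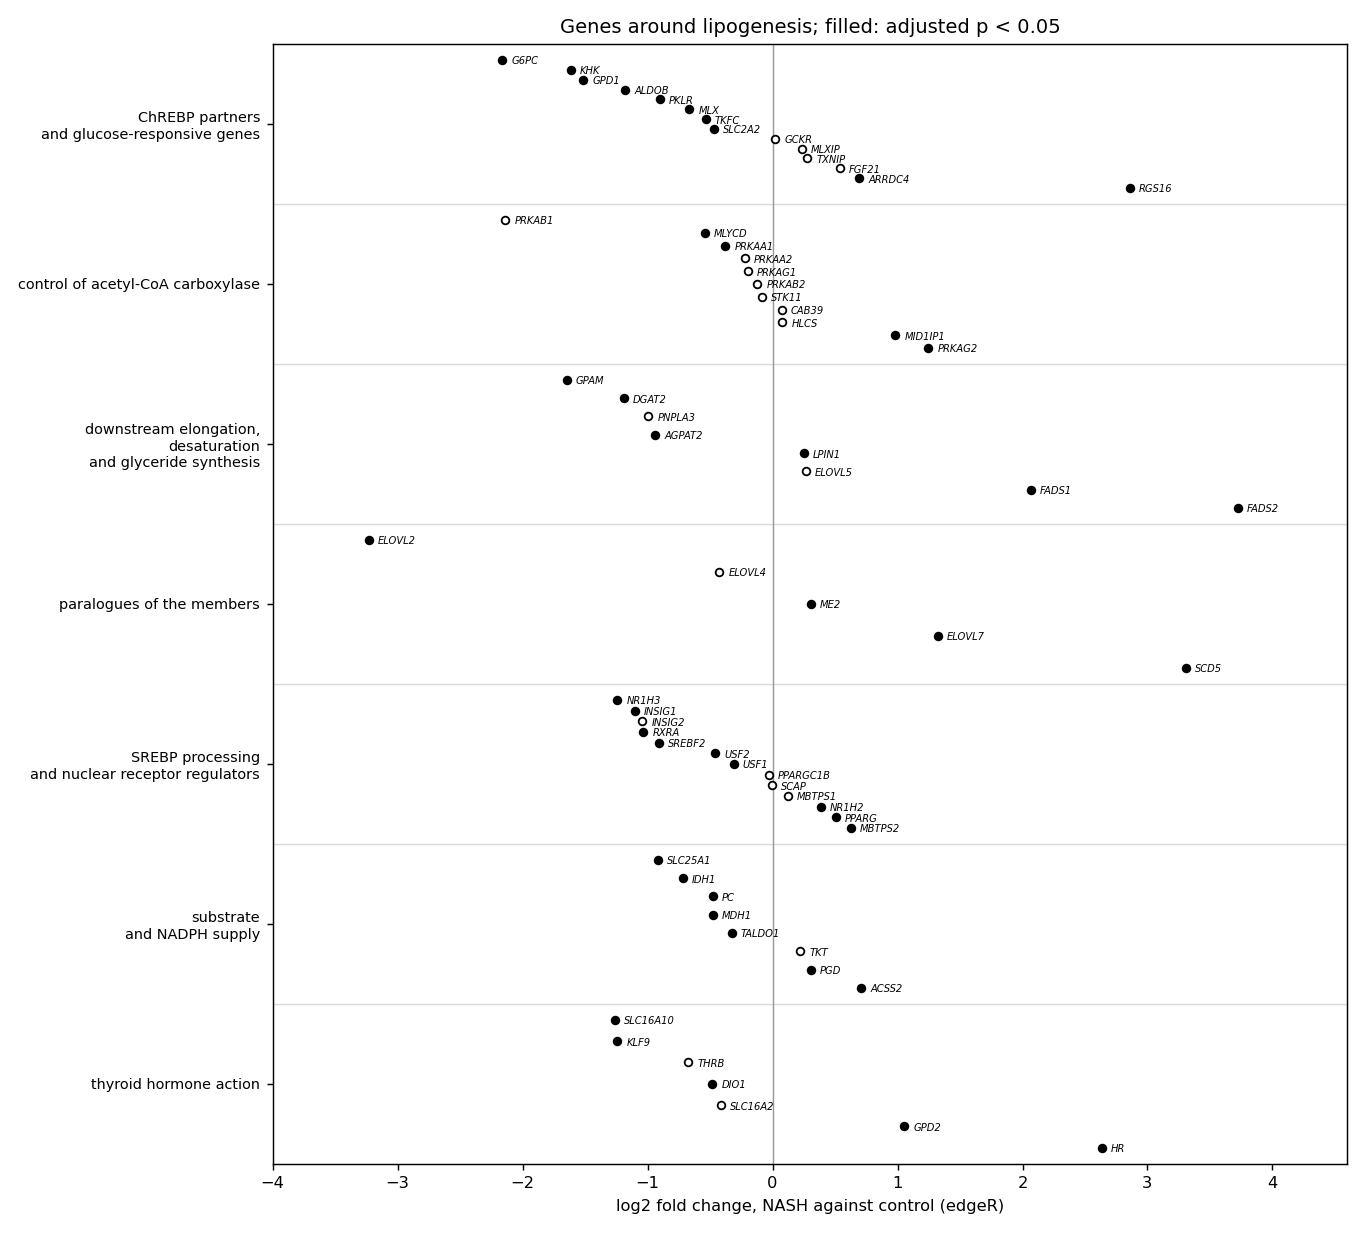
Log2 fold change in NASH against control of measured genes of 7 lists around lipogenesis, by edgeR; filled points passed the adjusted threshold of 0.05 over all genes. Each list has genes on both sides of 0, with *FADS2* at 3.73 and *ELOVL2* at −3.23 at the ends.

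Markers of other cells moved with the groups. Of 5 measured cholangiocyte markers, all were higher in NASH, and they summed to 73.2 to 114.9 CPM per control and to 302 to 539 CPM per animal with NASH. Of 6 stellate cell markers, 5 were higher and 1 lower (395 to 484 CPM in controls and 713 to 1199 CPM in NASH), of 4 macrophage markers 2 were higher and 1 lower (242 to 343 and 379 to 520 CPM), and of 5 endothelial markers 3 were higher (345 to 483 and 436 to 661 CPM). Of 5 T cell markers, 1 was higher and 1 lower (53.1 to 109.6 and 31.98 to 59.3 CPM). Most of that sum was the lower one, *CD3E*, at a mean of 69.0 CPM in controls and 33.0 CPM in NASH. The higher one, *CD8A*, had means of 1.22 and 3.01 CPM. All 3 measured erythroid markers were higher (57.0 to 171 and 426 to 4524 CPM). Most of that sum was *HBA1*, which shared its count row with another symbol. In NASH *HBA1* had a median of 688.5 CPM and a highest value of 4289 CPM. Of the adipocyte list, *ADIPOQ*, *PLIN1* and *LEP* were not among the genes of the table, and of the other 4 genes, *FABP4* was higher and 3 were lower. With library size alone, all 5 cholangiocyte, 5 stellate cell, 3 macrophage, 4 endothelial, 3 T cell and 3 erythroid markers were higher, and 1 macrophage and 1 T cell marker were lower. Of the adipocyte list, 1 was then higher and 2 lower. The part of these cells in the changes of the lipogenesis genes was not tested.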

How the data were processed

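The authors trimmed reads with Trimmomatic 0.38.0, mapped them with HISAT2 2.1.0 to Cavpor3.0, ignored multimapped reads and quantified loci with StringTie 1.3.6. They deposited raw counts per locus, without symbols, and, for genes with a human orthologue and at least 200 counts in total, rlog values, which are on a log2 scale and come from DESeq2. Symbols were tied to count rows by running rlog again, which matched the deposited values of all 11896 symbols to within 8.35e-07. Library size was the total of the whole count table.

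Counts of 6 animals with NASH and 6 controls, grouped by the sample labels, were compared in R 4.3.3 with edgeR 4.0.16 (TMM, glmQLFit with robust estimation, glmQLFTest) over all 11896 symbols, with Benjamini-Hochberg adjustment and a threshold of 0.05. DESeq2 1.42.0 and limma 3.58.1 were alternatives. Log2 CPM used a prior count of 2. Standard errors are the absolute log2 fold change over the square root of F. Ratios between regulators and correlations were tested by exact permutation; the ratios of *FASN*, chosen after their values were seen, are given without a p-value. The fit was tested on simulated data. In pairs of animals of a group the counts differed by far more than sampling noise.

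Named were all members, the 2 called genes with the largest rise and the 2 with the largest fall of each of 7 lists, and *SCAP*, *INSIG1*, *SREBF2*, *NR1H3*, *MLX*, *PKLR*, *THRB*, *DIO1*, *MID1IP1* and *SLC25A1*. Some genes that this rule names are not reported here. *NR1H2* was named after its values were seen. The members and lists were chosen with earlier results of these data known. Figures used matplotlib 3.10.9.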

Additional observations from a re-analysis of the deposited data

Results flagged for a closer look

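In the ratio of *FASN* to *ELOVL6* within an animal, NASH animal 2 stood at 4.50 on the log2 scale and the next animal of its group at 3.32, a gap of 0.72 of the whole range of the 6, above Dixon's 95% critical value. The animal had the lowest *ELOVL6* (9.22 CPM) and the highest *FASN* (210 CPM) of its group. It was the only value singled out in 28 groups of 6 examined. Chance singles out a value in about 1 in 20 groups, so 1 among 28 is not unusual. The ratio itself was chosen after the values were seen. Without this animal the ratio still shifted, by 1.84.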

How the results depend on the processing

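Of 120 fold changes of the 5 called genes under 24 alternatives, 119 kept direction and call, the exception being *THRSP* with limma-voom (−7.55, adjusted p = 0.0703 from limma). The number of members called was 5 in each of these settings but limma-voom, where it was 4, and library size alone, where it was 8 (6 higher and 2 lower), and with each animal left out it was 5. That scaling moved the calls over all genes from 3318 higher and 3093 lower to 7603 and 911. A test against a log2 fold change of 1 left 853 and 247 of all genes and all 5 members. The uncalled genes changed sign about 0. *ACACA* was at 0.063 with upper-quartile factors, 0.46 with library size alone, 0.070 with every row of at least 1 count and 0.040 with filterByExpr rows, and between −0.13 and 0.057 with an animal left out. *ACLY* was at 0.32 with library size alone. *ELOVL6* was at −0.031 with limma-voom and −0.012 on rlog values, and between −0.13 and 0.16 with an animal left out. The shift in the ratio of *MLXIPL* to *THRSP* was 1.38 on rlog values (adjusted p = 0.0606, exact permutation). In NASH, the correlation of *THRSP* with *MLXIPL* was 0.145 on rlog values, and that with *FASN* was −0.034 on rlog values and −0.116 as Spearman's rho. No paired analysis was possible because the animal numbers of the groups differ. Low counts limit *ME1* in controls and *THRSP* in NASH.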
